A study of Homo sapiens with 12 samples.

Results

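A set of 7 genes usually named for blood cells, but detected in these breast carcinoma lines, were described: CXCR4, TRBC2, ARHGDIB, LAPTM5, CORO1A, CD14 and CD68. They were chosen by name, with their levels by cell line and their response to SMARCA4 loss in MDA-MB-231 already known, and all 7 of 7 are among the 11529 genes of the expression table. Whether the choice also used their response in MDA-MB-468 is not stated. RNA-seq was carried out on 12 samples, 3 in each of 4 groups: MDA-MB-231 wild type (WT) and SMARCA4 knockout (KO), and MDA-MB-468 WT and KO. Both are established triple-negative breast cancer lines, MDA-MB-231 of mesenchymal and MDA-MB-468 of basal epithelial character. The KO was made with a lentiCRISPR-v2 vector carrying Cas9 and 1 guide against exon 4 of SMARCA4, the ATPase of the SWI/SNF chromatin remodelling complex, followed by puromycin selection. The KO cells are therefore a selected pool and not 1 clone, and the WT samples are labelled only as wild type or control. Nothing in the labels states that the 3 samples of a group came from separate cultures, so p-values measure only the spread between these samples, which may be technical.

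CXCR4 is the G protein-coupled receptor of the chemokine CXCL12 and guides the homing of leukocytes and stem cells; in breast cancer it is known for its part in metastatic spread. ARHGDIB is a cytosolic protein abundant in haematopoietic cells, and CORO1A is a coronin that binds F-actin and the Arp2/3 complex. TRBC2 encodes a constant region of the T cell receptor beta chain, LAPTM5 is a lysosomal membrane protein that lowers antigen receptor levels, CD14 is the co-receptor that hands lipopolysaccharide to Toll-like receptor 4, and CD68 is a lysosomal glycoprotein used as a macrophage marker. SWI/SNF moves nucleosomes at promoters and enhancers, many of which are specific to a cell type.

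All levels below are FPKM, fragments scaled to transcript length and to the mapped fragments of the library, and all changes are differences of the deposited log2(FPKM + 1) values, a scale that understates the change of low genes. A gene was called changed at a Benjamini-Hochberg adjusted p under 0.05 over all genes with an absolute log2 change over 0.5, in limma. SMARCA4 itself was measured at 67.5, 71.5 and 67.0 FPKM in MDA-MB-231 WT and at 21.0, 23.9 and 22.6 in KO, a log2 change of -1.57 (SE 0.06, adjusted p 0.0014 in limma). In MDA-MB-468 it was measured at 96.9, 97.4 and 101 FPKM in WT and at 39.7, 43.5 and 47.7 in KO, a log2 change of -1.16 (SE 0.08, adjusted p 0.014 in limma). The transcript was thus lower in all KO samples of both lines, and 32.7% and 44.3% of the WT mean remained. The table gives no read counts, so its depth is unknown. Pearson correlations between samples of the same group were 0.989 to 0.995 across genes.

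Of the 7 genes, 6 have a MANE Select transcript, whose start gives the promoter, and TRBC2 has none. On hg19 (GRCh37, GENCODE 44 annotation mapped to it), CXCR4 lies on chr2:136871919-136876747, ARHGDIB on chr12:15094965-15114662, LAPTM5 on chr1:31205316-31230621 and CD14 on chr5:140011313-140013285, all on the minus strand. TRBC2 lies on chr7:142498725-142500432, CORO1A on chr16:30194148-30200397 and CD68 on chr17:7482809-7485429, all on the plus strand. The bases upstream of this start are given from 5′ to 3′ in the direction of transcription for CXCR4 and LAPTM5, which were lower in MDA-MB-231 KO and near 0 in MDA-MB-468, and for CD14, which was higher in MDA-MB-231 KO. These are CXCR4 (chr2:136875720-136875969, minus strand), LAPTM5 (chr1:31230622-31230871, minus strand) and CD14 (chr5:140012878-140013010, minus strand; bases covered by exons of other CD14 transcripts are left out). Capitals mark matches, on either strand, to the letters of the AP-1 site (TGANTCA), the PU.1 box (GAGGAA), the RUNX site (TGTGGT), the GC box (GGGCGG) and the TATA box (TATAAA).
CXCR4: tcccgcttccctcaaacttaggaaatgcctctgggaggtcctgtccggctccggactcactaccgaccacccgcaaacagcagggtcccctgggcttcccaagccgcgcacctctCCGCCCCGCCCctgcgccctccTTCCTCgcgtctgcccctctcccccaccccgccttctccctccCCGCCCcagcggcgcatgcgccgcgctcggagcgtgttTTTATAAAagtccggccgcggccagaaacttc
LAPTM5: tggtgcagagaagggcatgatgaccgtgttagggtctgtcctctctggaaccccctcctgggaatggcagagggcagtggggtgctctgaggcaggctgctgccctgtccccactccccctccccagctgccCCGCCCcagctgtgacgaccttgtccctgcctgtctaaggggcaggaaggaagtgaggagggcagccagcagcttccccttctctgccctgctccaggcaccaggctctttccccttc
CD14: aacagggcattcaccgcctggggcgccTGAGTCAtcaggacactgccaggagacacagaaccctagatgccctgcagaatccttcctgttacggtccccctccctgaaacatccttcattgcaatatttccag
The CXCR4 window of 250 bases has 68.0% G and C and 24 CpG dinucleotides, against medians of 63.6% and 18 over 18922 promoters of the same length. It holds 3 GC boxes, of which 2 overlap at 135 and 130 bases before the start, 1 PU.1 box at 113 bases, and the TATA letters on both strands, overlapping, at 32 and 30 bases. The LAPTM5 window has 64.8% G and C but 3 CpG dinucleotides, with 1 GC box at 118 bases and no match to the 4 other motifs. The full CD14 window has 54.8% G and C and 5 CpG dinucleotides, with 1 AP-1 match at 223 bases and 1 PU.1 box at 96 bases, the latter outside the bases printed. The PU.1 letters occurred in 5 of the 6 member windows (CXCR4, ARHGDIB, CORO1A, CD14 and CD68), and the AP-1 letters in 2, CD14 and CD68. Over all promoters the PU.1 letters occur in 23.2%, the AP-1 letters in 4.71%, the RUNX letters in 8.75%, the GC box in 60.1% and the TATA letters in 9.11%. The RUNX letters were in none of the 6 windows. A match is a description of the letters and not evidence of binding.

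**Figure D1:**
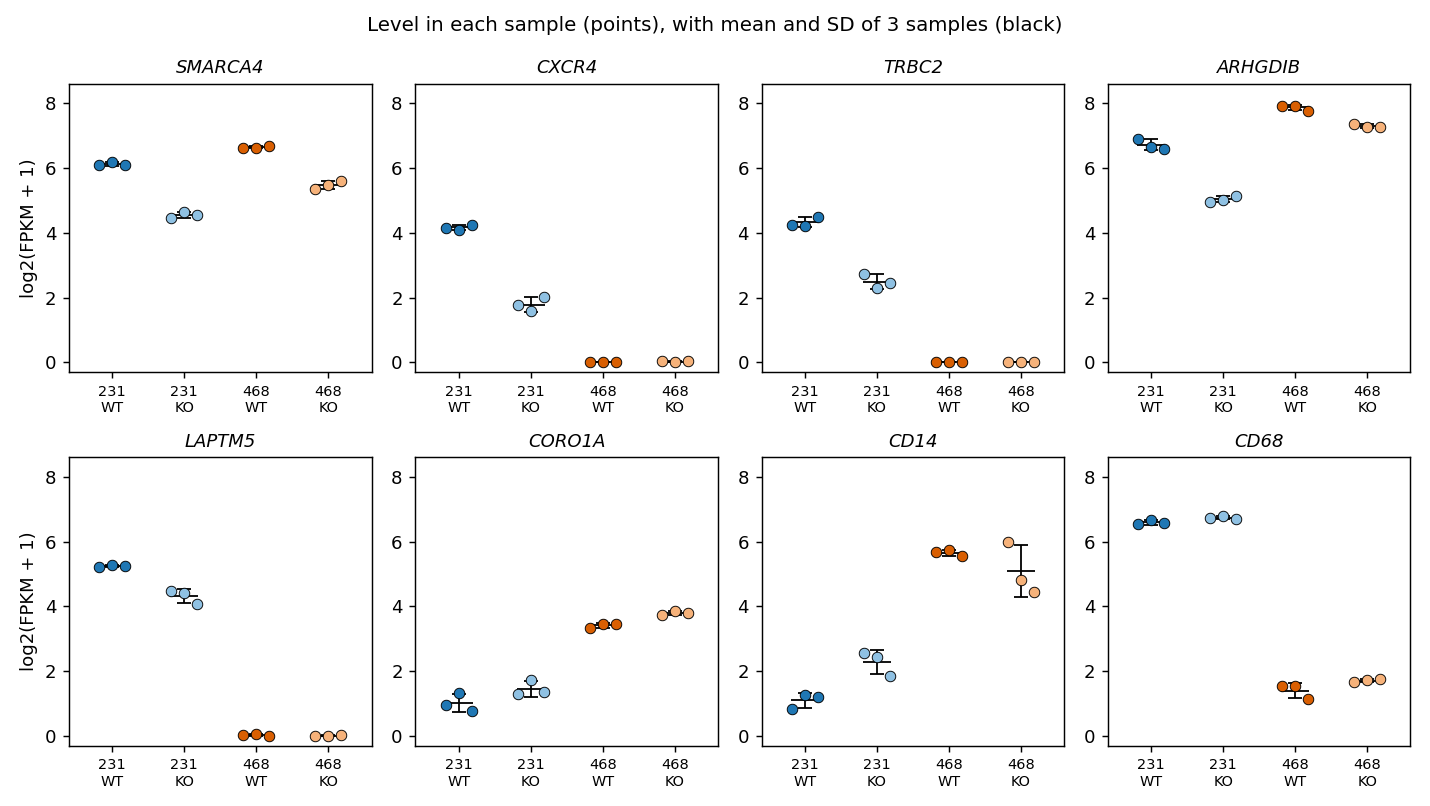
Level of SMARCA4 and of each of the 7 genes in every sample, as log2(FPKM + 1) (vertical axis), for WT and KO samples of MDA-MB-231 and MDA-MB-468; points are samples, black bars the mean and SD of 3 samples. CXCR4, TRBC2 and LAPTM5 are at 0 to 0.07 in MDA-MB-468, whereas CD14 and CORO1A are higher there and CD68 is higher in MDA-MB-231.

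The surface receptor CXCR4 was present in MDA-MB-231 and at the floor in MDA-MB-468. It was measured at 16.9, 16.1 and 17.8 FPKM in MDA-MB-231 WT and at 2.38, 1.98 and 3.04 in KO. The KO samples lay below all WT samples, at 14.6% of the WT mean, and the log2 change of -2.38 (SE 0.12) was the 2nd lowest of all 11529 genes, after IL11 at -2.67. In bulk RNA of a selected pool, fewer cells with the transcript and less transcript per cell cannot be told apart. In MDA-MB-468 WT it was listed at 0 in all 3 samples, and in KO at 0.03, 0 and 0.02 FPKM. The KO change there was 0.02 on the log2 scale (95% interval -0.07 to 0.12, adjusted p 0.75 in limma), a comparison between samples that hardly hold the transcript. CXCR4 levels thus fell in the order MDA-MB-231 WT, MDA-MB-231 KO and MDA-MB-468, and WT and KO of MDA-MB-468 overlapped.

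TRBC2, the T cell receptor constant segment, had the same order. MDA-MB-231 WT samples were at 17.99, 17.5 and 21.6 FPKM and KO samples at 5.66, 3.88 and 4.44, which is 24.5% of the WT mean. All KO samples were lower, with a log2 change of -1.83 (SE 0.14), the 3rd lowest of all genes. The 6 MDA-MB-468 samples were all listed at 0, so no KO change could be measured there. The TRBC1 constant segment is nearly identical in sequence, so reads of both may be shared and the TRBC2 value is uncertain to that extent. TRBC1 was not among the genes analysed here.

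ARHGDIB was expressed in both lines and was lower after SMARCA4 KO in both. In MDA-MB-231 it was measured at 119, 99.2 and 94.6 FPKM in WT and at 30.1, 31.1 and 34.2 in KO, or 30.5% of the WT mean, a log2 change of -1.68 (SE 0.10), the 5th lowest of all genes. In MDA-MB-468, where the WT level was higher, it was measured at 242, 238 and 217 FPKM in WT and at 163, 153 and 152 in KO. The KO samples again lay below all WT samples, at 67.2% of the WT mean. The log2 change was -0.57 (SE 0.06, 95% interval -0.72 to -0.42, adjusted p 0.019 in limma). It was past the call rule, but its p is a description, since the choice of genes may have used this contrast. This call was kept in 1 of the 6 fits that left out a sample, the one without KO replicate 1, and in the other fits the adjusted p reached 0.107. The log2 change was -0.54 to -0.62 in all 6. The 4 groups of samples did not overlap at any step of the order MDA-MB-468 WT, MDA-MB-468 KO, MDA-MB-231 WT and MDA-MB-231 KO.

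LAPTM5, the lysosomal adaptor, was again a gene of MDA-MB-231. Its WT samples were at 35.9, 37.8 and 36.8 FPKM and its KO samples at 21.1, 20.3 and 15.95, so the groups did not overlap and 51.9% of the WT mean remained. The log2 change was -0.92 (SE 0.11). Without KO replicate 2 of MDA-MB-231 it no longer passed the call rule, although all alternative values stayed between -0.80 and -0.99. In MDA-MB-468 it was at 0.02, 0.05 and 0 FPKM in WT and at 0, 0 and 0.03 in KO, and the change was -0.02 (95% interval -0.13 to 0.09, adjusted p 0.83 in limma).

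**Figure D2:**
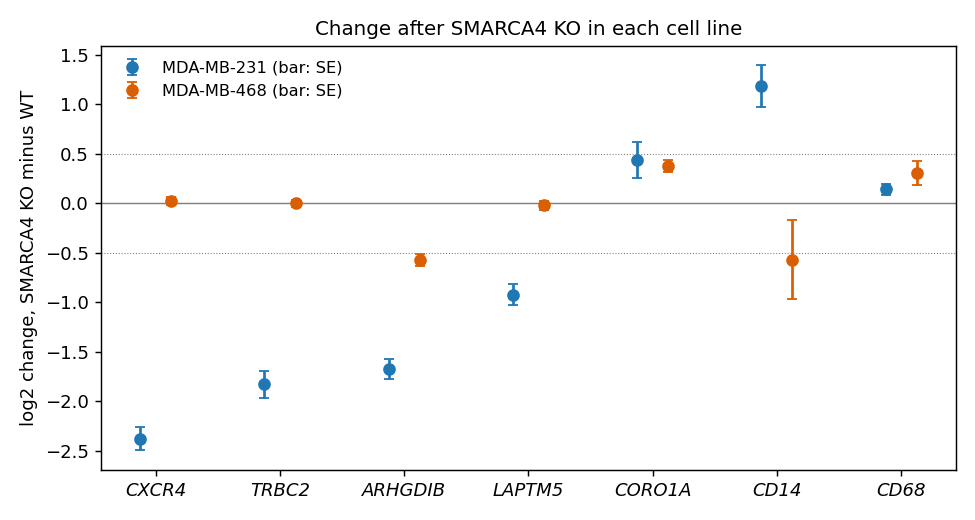
Change after SMARCA4 KO of the 7 genes (vertical axis, log2(FPKM + 1) of KO minus WT, points; bars, SE of the limma fit, 3 against 3 samples) in MDA-MB-231 (blue) and MDA-MB-468 (orange); dotted lines mark the log2 limit of 0.5. CXCR4, TRBC2, ARHGDIB and LAPTM5 lie between -2.38 and -0.92 in MDA-MB-231, and ARHGDIB alone of these 4 lies below -0.5 in MDA-MB-468.

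CD14, the lipopolysaccharide co-receptor, went the other way in MDA-MB-231. It was measured at 0.79, 1.39 and 1.31 FPKM in WT and at 4.90, 4.39 and 2.65 in KO. All KO samples were above all WT samples, at 342% of the WT mean, with a log2 change of 1.18 (SE 0.21). The call at this low level was kept in 1 of the 6 fits that left out a sample. In MDA-MB-468, where the level was higher, WT samples were at 49.8, 52.9 and 46.1 FPKM and KO samples at 63.2, 27.3 and 20.8. KO replicate 1 lay above all WT samples and the other 2 below, and the log2 change of -0.57 (SE 0.40, 95% interval -1.55 to 0.42, adjusted p 0.42 in limma) did not pass the test. Without KO replicate 1 the change was -1.02 (adjusted p 0.030 in limma). The same library was also highest for the calgranulin genes: S100A8 was at 1763 FPKM in it and at 676 and 548 in the other KO samples, and S100A9 at 4827 against 2473 and 2176. The part of these genes, or of this library, in the CD14 values was not tested.

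CORO1A and CD68 were not called in the KO contrast of either line. CORO1A, the actin-binding coronin, was at 0.94, 1.5 and 0.72 FPKM in MDA-MB-231 WT and at 1.44, 2.34 and 1.54 in KO. These overlapped, and KO was at 168% of the WT mean (log2 change 0.44, SE 0.18). In MDA-MB-468 it was at 9.0, 9.96 and 10.1 FPKM in WT and at 12.4, 13.4 and 12.9 in KO. The KO samples were all higher, at 133% of the WT mean. The change was 0.38 on the log2 scale (SE 0.06, 95% interval 0.23 to 0.53, adjusted p 0.037 in limma), which is under the fold limit. An antisense gene, CORO1A-AS1, overlaps CORO1A, and the sources used here do not state whether counting used the strand.

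CD68, the macrophage glycoprotein, was at 92.7, 101 and 93.5 FPKM in MDA-MB-231 WT and at 106, 110 and 102 in KO. All KO samples were higher, at 111% of the WT mean, by 0.14 on the log2 scale (SE 0.06), short of the fold limit. In MDA-MB-468 it was near 2 FPKM, at 1.93, 1.89 and 1.19 in WT and 2.15, 2.30 and 2.38 in KO. This was 136% of the WT mean, a log2 change of 0.31 (SE 0.12, adjusted p 0.20 in limma). Long noncoding genes overlap CD68 on both strands.

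Over the 7 genes, the KO contrast in MDA-MB-231 called 4 lower (CXCR4, TRBC2, ARHGDIB and LAPTM5), 1 higher (CD14) and 2 not. Of all 11529 genes, 1.31% were called lower and 2.39% higher. The genes were chosen with this contrast known, so this count describes the choice, and nothing is read from it. The median log2 change of the 7 was -0.92, against -0.01 over all genes. KO samples lay below all WT samples for 4 of the genes and above for 2, where 19.4% of all genes lay below and 16.6% above.

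In MDA-MB-468, 1 of the 7 genes was called, ARHGDIB, which was lower, and 0 were called higher. The choice was read as not using this KO contrast, but its rule does not state so. The p-values of the 7 genes here are thus given as a description. Of all genes, 0.815% were called lower and 1.33% higher in this contrast. ARHGDIB, CORO1A and CD68 had an unadjusted p under 0.05 in limma. More of all genes pass that limit than pass the call rule, so nothing is read from this. With the fits that left out a sample, 0 to 2 genes were called. KO samples were below all WT samples for 1 gene and above for 2, against 13.5% and 17.5% of all genes. Over the 7 genes the median log2 change was 0 against 0.02 over all genes. CXCR4, TRBC2 and LAPTM5 were at or near 0 FPKM in this line and could hardly be lowered further.

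**Figure D3:**
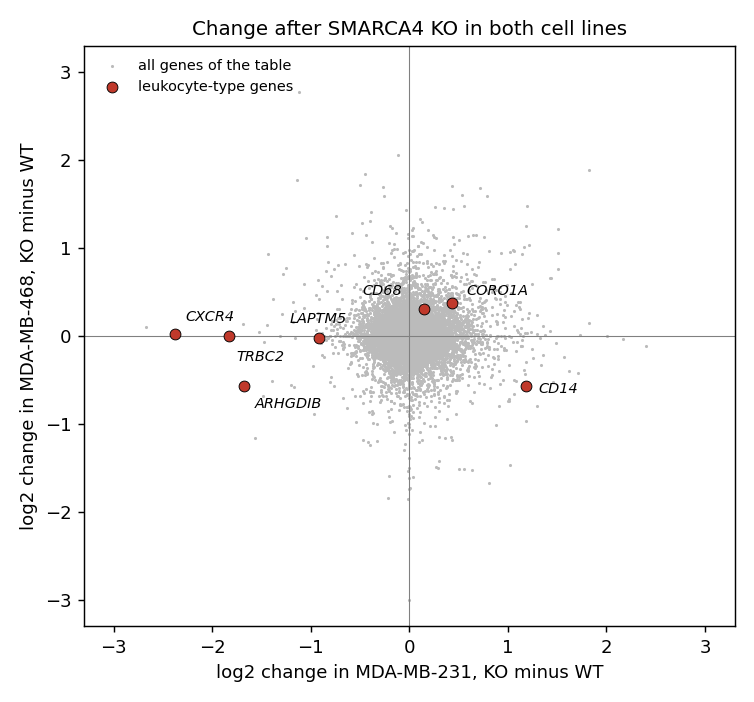
Log2 change after SMARCA4 KO of each of the 11529 genes in MDA-MB-231 (horizontal axis) and MDA-MB-468 (vertical axis), grey points, with the 7 leukocyte-type genes in red. CXCR4, TRBC2 and LAPTM5 lie on the horizontal line at -2.38, -1.83 and -0.92, ARHGDIB lies below 0 on both axes, and CD14 lies at 1.18 and -0.57.

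The difference of the KO change between the lines, MDA-MB-468 minus MDA-MB-231, was over the call rule for 8.71% of all genes. For the 7 genes it is given as a description: 2.40 for CXCR4, 1.83 for TRBC2, 1.11 for ARHGDIB, 0.90 for LAPTM5, -1.75 for CD14, 0.16 for CD68 and -0.06 for CORO1A. The first 5 were past the call rule. For CXCR4, TRBC2 and LAPTM5 the difference equals almost the whole change in MDA-MB-231, because the transcripts were at or near 0 in MDA-MB-468.

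Between the WT cells of the lines the 7 genes were called 7 of 7, with 3 higher and 4 lower in MDA-MB-468. In this contrast 32.7% of all genes were called higher and 31.4% lower, so such differences are the rule between these lines, and the genes were chosen with their levels known. The log2 difference of MDA-MB-468 from MDA-MB-231 was -4.16 for CXCR4, -4.32 for TRBC2, -5.21 for LAPTM5 and -5.19 for CD68, and 1.15 for ARHGDIB, 2.40 for CORO1A and 4.56 for CD14. The size for genes near 0 FPKM depends on the pseudocount: with 0.1 in place of 1, it was -7.41 for CXCR4, -7.57 for TRBC2 and -8.25 for LAPTM5. A gene that is low in 1 line passed the filter on low values only through the line where it is high, so such a difference had to appear. CXCR4, TRBC2, LAPTM5 and CD68 made up the set of MDA-MB-231, and CD14 and CORO1A that of MDA-MB-468. ARHGDIB was high in both lines.

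The levels of other blood-cell markers are given here beside the 7 genes, and whether admixed cells have a part in these values was not tested. Of 20 T cell receptor and T cell signalling genes listed (TRBC1, TRAC, the CD3 chains, LCK and others), 0 were among the genes analysed here. Of 25 pan-leukocyte genes 6 were, and the general leukocyte antigen PTPRC was not. Of 22 myeloid genes 3 were, and of 9 B cell genes 1. The authors removed genes with a low mean or SD of FPKM, so no value is known for those left out.

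Of the 6 pan-leukocyte genes measured, 2 were called higher and 3 lower in MDA-MB-468 WT than in MDA-MB-231 WT, and ITGB2 was not called. Over all genes, 32.7% were called higher and 31.4% lower in this contrast. RAC2, a gene of blood cells, was at 152 FPKM in MDA-MB-231 WT and 38.1 in MDA-MB-468 WT, EVI2B at 9.77 and 0.02, and DOCK2, an activator of RAC, at 6.04 and 0.06. EVI2B and DOCK2 passed the filter on low values only through MDA-MB-231, so their difference had to appear. VAV1, a signalling protein of blood cells, went the other way, at 0.30 FPKM in MDA-MB-231 WT and 3.36 in MDA-MB-468 WT. The hyaluronan receptor CD44, widely expressed in carcinoma, was at 482 and 890. RAC2, EVI2B and DOCK2 were not called in the KO contrast of MDA-MB-231, with log2 changes of 0.00 (adjusted p 0.98), 0.02 (0.91) and -0.22 (0.37) in limma. VAV1 and CD44 were not called either, at 0.28 (adjusted p 0.18) and 0.30 (0.11) in limma. ITGB2 of the same list, described below, was called lower there. CXCR4, TRBC2, ARHGDIB and LAPTM5, which were also lower, were chosen with that change known. The summed level of the 6 genes was 611 to 707 FPKM in MDA-MB-231 WT and 715 to 799 in KO, and 871 to 1004 and 797 to 918 in MDA-MB-468. CD44 and RAC2 made up nearly all of this sum: without them, the other 4 genes summed to 16.9 to 20.8 and 15.2 to 17.8 FPKM in MDA-MB-231 WT and KO, and to 5.02 to 5.32 and 7.74 to 8.40 in MDA-MB-468. Over the 6 genes the median log2 change was 0.01 and 0.07.

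ITGB2, the beta chain of the leukocyte integrins, was the only gene of the pan-leukocyte list called in a KO contrast. It was at 2.45, 2.75 and 3.06 FPKM in MDA-MB-231 WT and at 1.48, 0.93 and 0.87 in KO. In MDA-MB-468 it was at 1.49, 2.19 and 1.59 in WT and at 3.85, 3.43 and 3.45 in KO. It was therefore lower in KO of 1 line (log2 change -0.85, SE 0.13, adjusted p 0.020) and higher in KO of the other (0.74, SE 0.11, adjusted p 0.033) in limma, and the groups did not overlap in either. The difference between the lines was 1.59 (adjusted p 0.00036 in limma). The call in MDA-MB-231 was kept in 2 of the 6 fits that left out a sample and that in MDA-MB-468 in 1 of 6. Blocking on replicate numbers ended both calls (adjusted p 0.092 in MDA-MB-231 and 0.066 in MDA-MB-468, in limma).

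**Figure D4:**
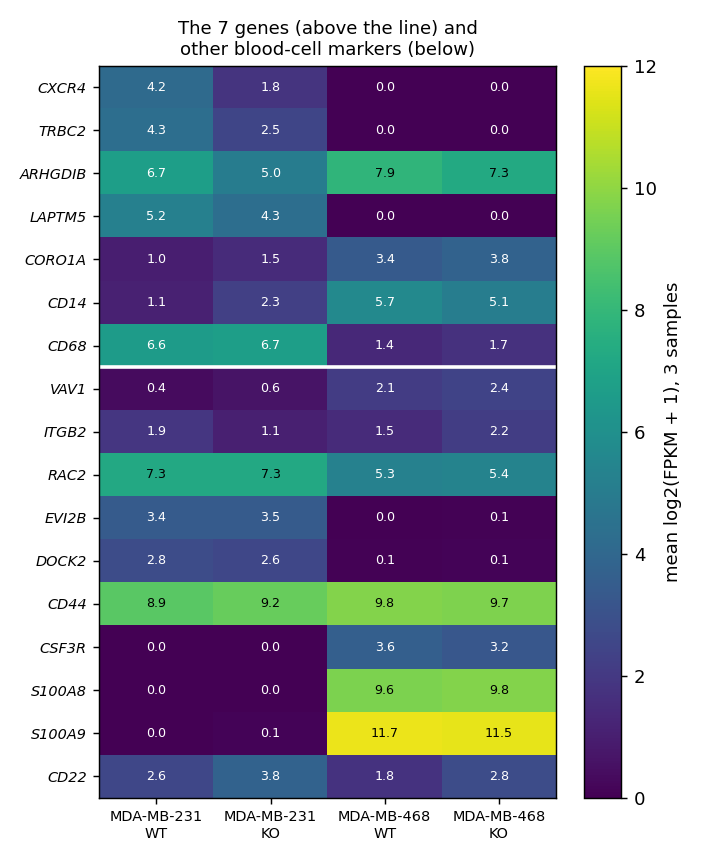
Mean log2(FPKM + 1) of 3 samples in each group (columns; colour and printed value) for the 7 genes (above the white line) and for the other blood-cell markers that were measured (below). CXCR4, TRBC2 and LAPTM5 are at 0.0 in MDA-MB-468, S100A8, S100A9 and CSF3R are at 0.0 or 0.1 in MDA-MB-231, and CD22 is higher in KO of both lines.

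The myeloid genes measured were S100A8, S100A9 and CSF3R, the first 2 also made by epithelial cells. They were at 796, 3240 and 11.4 FPKM in MDA-MB-468 WT, and their sum did not exceed 0.27 FPKM in any MDA-MB-231 sample. None of the 3 was called in a KO contrast. In WT, MDA-MB-231 had CD68 at 95.8 FPKM and MDA-MB-468 had CD14 at 49.6 FPKM. The 3 myeloid genes were measured above 1 FPKM only in MDA-MB-468. Being near 0 in MDA-MB-231, they passed the filter on low values only through MDA-MB-468, so this difference had to appear and nothing is read from it.

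The B cell list was represented by CD22, a sialic acid-binding inhibitory receptor. It was at 4.18, 5.53 and 5.28 FPKM in MDA-MB-231 WT and at 14.4, 12.6 and 11.7 in KO, and rose by 1.22 on the log2 scale (SE 0.11, adjusted p 0.0082 in limma). This call was kept in 6 of 6 fits that left out a sample, but not with replicate numbers as a block (adjusted p 0.071 in limma). In MDA-MB-468 it was at 1.74, 2.77 and 2.76 in WT and 4.63, 6.12 and 7.45 in KO, with a log2 change of 1.04 (SE 0.19, adjusted p 0.052 in limma). Blocking on replicate numbers gave an adjusted p of 0.043 in limma, and 1 of the 6 fits that left out a sample called it. CD22 was higher in all KO samples of both lines.

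Breast line markers were used to check the cells. All 8 of the 8 listed genes were measured. KRT8, KRT18, KRT19, EPCAM, CDH1, EGFR and KRT5 were higher in MDA-MB-468 WT, EPCAM at 302 against 14.0 FPKM, and the mesenchymal filament gene VIM was higher in MDA-MB-231 WT, at 1309 against 2.61. After KO of SMARCA4 in MDA-MB-231, the cell adhesion gene CDH1 rose by 0.54 (SE 0.12, adjusted p 0.044 in limma) from a mean of 0.27 FPKM, a call kept in 0 of the 6 fits that left out a sample.

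Around CXCR4, the signalling genes were expressed without its main ligand being measured: CXCL12 was not analysed here. Of 23 genes of its ligands, coupling and turnover, 21 were tested and 0 were called in either KO contrast. Another ligand, MIF, was at 398 FPKM in MDA-MB-231 WT and 462 in KO, and at 444 and 521 in MDA-MB-468. CD74, a MIF receptor and the invariant chain of MHC class II, was at 249, 393 and 436 FPKM in MDA-MB-231 WT and 642, 698 and 610 in KO. These groups did not overlap, with a log2 change of 0.89 (SE 0.22, adjusted p 0.054 in limma), while in MDA-MB-468 it was at most 0.58 FPKM. CD74 passed the call rule in 5 of 14 alternatives, with adjusted p of 0.0086 in 1 fit of all 4 groups, 0.027 after the filter on mean FPKM and 0.036 without WT replicate 1 (log2 change 0.65), so the count of 0 for MDA-MB-231 rests on the fit. In MDA-MB-468, 5 of 15 alternatives called 1 gene of the list each: DPP4 and GRK3 (listed as ADRBK2) higher in 2 each and JAK2 lower in 1. GNAI2, a G protein subunit that couples chemokine receptors, was at 201 FPKM in MDA-MB-231 WT and 28.1 in MDA-MB-468 WT, with KO changes of -0.05 and 0.12. The median log2 change of the list was 0.03 in MDA-MB-231 KO and 0.11 in MDA-MB-468 KO, against -0.01 and 0.02 over all genes.

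Among 22 other chemokine receptors, 2 were analysed, and 0 of these were called in either KO contrast. ACKR2, a scavenging receptor for inflammatory chemokines, was at 12.7 FPKM in MDA-MB-468 WT and 0.05 in MDA-MB-231 WT. CCRL2, which presents chemerin, was at 20.5 FPKM in MDA-MB-231 WT and 0.45 in MDA-MB-468 WT. In MDA-MB-231 KO, CCRL2 changed by 0.21 (SE 0.13) on the log2 scale, beside -2.38 for CXCR4, which was chosen with its change known. ACKR2 changed by -0.04 (SE 0.06) there, but at 0.05 FPKM in WT it could hardly be lowered.

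Around CORO1A, 12 of 15 coronin and Arp2/3 genes were tested and 0 were called in either KO contrast. The other coronins CORO1B, CORO1C and CORO7 were at 87.5, 107 and 11.97 FPKM in MDA-MB-231 WT, against 1.05 for CORO1A. In MDA-MB-468 WT, CORO1B was at 203 FPKM and CORO1A at 9.68. The median log2 change of the list in MDA-MB-231 was -0.15, against -0.01 over all genes, and ARPC5L, ARPC5 and ARPC2, subunits of the Arp2/3 complex, were lower by amounts under the fold limit (-0.36, -0.39 and -0.22, adjusted p 0.019, 0.029 and 0.040 in limma).

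Around CD14, 11 of 19 genes of Toll-like receptor signalling were tested and 0 were called in either KO contrast. The adaptor gene TICAM2 was called lower in MDA-MB-231 KO in 3 of 14 alternatives. The CD14 partner TLR4 and its co-factor LY96 were not among the genes analysed here. TLR2, which also works with CD14, was at 4.71 FPKM in MDA-MB-231 WT and 0.09 in MDA-MB-468 WT, the reverse of CD14. The adaptor kinase IRAK1 was the most abundant gene of the list, at 90.6 and 266 FPKM in WT. The list had a median log2 change of 0.01 in MDA-MB-231 KO and 0.10 in MDA-MB-468 KO.

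Around LAPTM5 and CD68, 10 of 12 genes of lysosomal membrane proteins and of the NEDD4 ubiquitin ligase family were tested. In MDA-MB-231 KO, 0 were called. In MDA-MB-468 KO, 1 was called lower, SCARB2, the receptor that carries glucocerebrosidase to lysosomes, which was at 62.1, 52.0 and 49.8 FPKM in WT and at 37.2, 34.1 and 34.5 in KO (log2 change -0.61, SE 0.09, adjusted p 0.036 in limma). That call was kept in 1 of the 6 fits that left out a sample. The paralogs LAPTM4A and LAPTM4B were measured in both lines, at 109 and 53.4 FPKM in MDA-MB-231 WT and 147 and 62.8 in MDA-MB-468 WT. The list had a median log2 change of 0.13 in MDA-MB-231 KO and -0.14 in MDA-MB-468 KO. Of the 3 LAPTM genes, only LAPTM5 was near 0 in MDA-MB-468.

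The genes next to the 7 were compared, taking the 2 nearest measured genes on either side within 500 kb, a choice made after the data had been seen. None of these 21 neighbours was called in either KO contrast, with median log2 changes of 0.04 in MDA-MB-231 and 0.07 in MDA-MB-468. Over all genes, 2.39% were called higher and 1.31% lower in MDA-MB-231, and 1.33% and 0.815% in MDA-MB-468. A count of 0 among 21 genes is near these shares, and the counts of 0 for the short lists above stand beside the same shares. Beside CXCR4, MCM6 at 237.9 kb and UBXN4 at 329.3 kb changed by 0.26 (SE 0.04) and 0.05 (SE 0.06) in MDA-MB-231. Beside TRBC2, EPHB6 at 52.4 kb was at 1.07 FPKM in MDA-MB-231 WT and 19.3 in MDA-MB-468 WT, the reverse of TRBC2. Beside ARHGDIB, the matrix Gla protein gene MGP at 56.2 kb was at 1005, 1063 and 986 FPKM in MDA-MB-468 WT and at 799, 628 and 580 in KO (log2 change -0.62, SE 0.13, adjusted p 0.059 in limma), and at most 0.14 FPKM in MDA-MB-231. The nearer ERP27 at 3.5 kb and the farther RERG at 146.1 kb changed by -0.16 (SE 0.06) and -0.15 (SE 0.18) in MDA-MB-468. In MDA-MB-231, where both were near 0 FPKM, they changed by -0.22 (SE 0.07) and 0.05 (SE 0.07). Of the genes within 10 kb of CD14 and CD68, NDUFA2, TMCO6, EIF4A1, SENP3, MPDU1 and FXR2, the largest change in either line was -0.32, of EIF4A1 in MDA-MB-231.

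The genes with the most similar profile were taken as those with the smallest root mean square difference of mean-centred log2 values over the 12 samples. CXCR4 and TRBC2 were each nearest to the other, at 0.32, where the root mean square of CXCR4 about its own mean was 1.70. After TRBC2, the genes nearest CXCR4 were SLIT2, a secreted guidance ligand (0.46), and KHDRBS3, an RNA-binding protein (0.48). For TRBC2 they were FOXA2 (0.36) and ENPP1 (0.37). LAPTM5 was nearest to COL8A1 (0.13), the collagenase MMP1 (0.16) and LINC00973 (0.17).

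For ARHGDIB the nearest gene was GALNT3, a starter of mucin-type glycosylation, at 0.21, followed by FIG4 (0.39) and TMEM156 (0.41). GALNT3 changed by -1.20 in MDA-MB-231 and -0.55 in MDA-MB-468 after KO, beside -1.68 and -0.57 for ARHGDIB. CD14 was nearest to the serine protease TMPRSS2 (0.40), SYT12 (0.40) and SULT1A1 (0.41). CORO1A was nearest to EVA1B (0.15), CASC10 (0.20) and LPHN1 (0.20), and CD68 to PDLIM4 (0.19), SPG20 (0.19) and EIF4G3 (0.19). These likenesses are dominated by the difference in level between the lines, and are values of these 12 samples only.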

How the data were processed

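Per the methods of the study, reads were trimmed (Trimmomatic), mapped to hg19 by STAR in 2 passes, and quantified as FPKM by RSEM; the authors dropped genes whose FPKM had a mean or an SD below 1. What they deposited is log2(FPKM + 1) for 11529 genes and 12 samples. Libraries were TruSeq stranded mRNA; the strand setting of the counting is not given in the sources used here. Samples were grouped by the labelled cell line and genotype. Without further filter or normalization, a limma model (version 3.58.1; R 4.3.3; eBayes with no trend) was fitted to each pair of groups, 3 against 3 samples; the difference between lines was 1 fit of 4 groups. Genes were called at a Benjamini-Hochberg adjusted p under 0.05 over 11529 genes and an absolute log2 change over 0.5. FPKM were recovered as 2 to the power of the value, less 1. In 18 rows a date stands for the symbol; they were tested but not named.

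The members and lists were chosen with earlier results of these data known. Members carry a p-value in the MDA-MB-468 KO contrast only, on the reading, not stated, that the choice did not use it. Named are SMARCA4, the members, list genes called in a KO contrast or at the highest level, and the 3 nearest genes per member; IL11 and the list genes given as examples of a level were picked after their values were seen. The replicate numbers were checked for pairing by the correlation of same-numbered deviations from the group means over 10187 genes. It was 0.280, 0.191 and 0.147 in MDA-MB-468, and -0.074, 0.077 and -0.159 in MDA-MB-231. By the description numbers shared in MDA-MB-468 it was -0.257 and 0.050. In MDA-MB-231 the description numbers match the same samples as the replicate numbers. The labels state no pairing, and these values do not settle which samples pair. Alternatives were a pseudocount of 0.1, an intensity trend, 1 fit of 4 groups, 2 scalings, a filter on mean FPKM, a log2 limit of 1, replicate blocks and leaving out each sample. The fit was tested on simulated data. Promoter windows of 250 bases were read from GRCh37. The results of 1 gene list are not reported here.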

Additional observations from a re-analysis of the deposited data

Results flagged for a closer look

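Of 122 genes that were named or counted, 25 had a KO change that differed between MDA-MB-468 and MDA-MB-231 past the call rule in the interaction contrast of limma. Over all genes, 8.71% were past this rule. The 25 include members and genes nearest to them in profile, chosen with their values known, so no excess is read from the count. The values below are the difference of the log2 change, MDA-MB-468 minus MDA-MB-231. For 5 of the 7 leukocyte-type genes it was 2.40 (CXCR4), 1.83 (TRBC2), 1.11 (ARHGDIB), 0.90 (LAPTM5) and -1.75 (CD14); these were chosen with the change in MDA-MB-231 known, so the test carries no weight for them. The CD14 difference was past the rule in 6 of the 12 fits that left out a sample, and the other 4 in 12 of 12.

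Among the listed genes, ITGB2 differed by 1.59, lower in MDA-MB-231 KO and higher in MDA-MB-468 KO. The lysosomal genes SCARB2 and LAMP2 differed by -0.92 and -0.52, and CCRL2 by -0.57. The line markers CDH1 and VIM differed by -0.76 and 0.81. The neighbour MGP differed by -0.68, where it was at or near 0 FPKM in MDA-MB-231.

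The genes with profiles nearest to the members were taken for that likeness, so their differences follow from the choice: 1.58 for SLIT2, 1.44 for KHDRBS3, 0.87 for FOXA2, 0.87 for ENPP1, 0.65 for GALNT3, 0.67 for TMEM156 and 0.54 for the phosphatase gene FIG4. It was 0.93 for COL8A1, 0.65 for MMP1, 0.77 for LINC00973, -1.81 for TMPRSS2, -1.10 for SYT12 and -0.94 for SULT1A1.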

How the results depend on the processing

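In MDA-MB-231, 426 genes were called; a log2 limit of 1 gave 85, and leaving out 1 sample gave 99 to 311, the fewest without KO replicate 2. With the replicate number as a block, 0 genes passed in limma (3126 at an unadjusted p under 0.05, smallest adjusted p 0.052). Thus 0 of the 5 members called remained past the rule. In this line the numbers in the sample descriptions match WT to KO samples as the replicate numbers do. The labels state no pairing by either number. Leaving out 1 sample gave 3 to 5 members, CD14 and LAPTM5 being lost without KO replicate 2. In MDA-MB-468, 247 genes were called, 537 in 1 fit of 4 groups, 427 after the filter on mean FPKM, 53 at a log2 limit of 1 and 0 to 474 when 1 sample was left out (0 without WT replicate 2 or KO replicate 2, with 2288 and 2023 at an unadjusted p under 0.05). With the number in the sample description as a block, and the 2 samples without a counterpart as 1 block, 0 genes passed in limma (2218 unadjusted, smallest adjusted p 0.140). There the 1 member called fell to 0 at a log2 limit of 1 and with that block, and 0 to 2 were called without 1 sample; the replicate block kept the ARHGDIB call, ended that of ITGB2 and added CD22. Between the WT lines, 7395 genes were called, 4150 at a log2 limit of 1, and for the difference between lines 1004 and 217. No replicate block was fitted for the WT lines. A pseudocount of 0.1 moved the MDA-MB-231 changes of CXCR4, CD14 and CORO1A to -2.75, 1.68 and 0.73, and the WT line differences of CXCR4, TRBC2 and LAPTM5 to -7.41, -7.57 and -8.25. Of the log2 changes of the 7 genes, the difference of the CORO1A KO change between the lines changed sign: it was -0.06, and above 0 in 3 of 19 alternatives (at most 0.10), with no call in any. The other changes kept their sign under the alternatives run, and the cause of the moves was not tested. Depth is unknown, so levels near 0 FPKM cannot be given a counting error.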
